A study of Mus musculus with 10 samples.

Results

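Hepcidin and 9 further genes of iron handling were followed in reactive cholangiocytes, biliary epithelial cells that expand around the portal tracts of an injured liver. The 10 genes were taken by symbol from the table of normalized counts, which holds 49568 genes: *Hamp*, *Hamp2*, *Hfe*, *Hfe2*, *Tfr2*, *Tfrc*, *Slc40a1*, *Slc11a2*, *Fth1* and *Ftl1*. All 10 were found, and 9 passed the minimum mean of 10 normalized counts that 14870 genes passed, with *Hamp2* below it at a mean of 0.648. Cells came from 5 *Ctl* mice, which the labels give as Smad4wt/wt with WT titles, and 5 *Smad4del* mice, given as Smad4fl/fl with floxed titles. By the methods, the *Smad4del* mice carried *Alb-Cre*, which is active in hepatocytes and cholangiocytes, and the *Ctl* mice did not, so that loss of *Smad4* and presence of Cre cannot be told apart. All mice were on a mixed genetic background and had been fed 0.1% DDC, a compound that injures bile ducts through porphyrin plugs, for 2 weeks. Live EPCAM-positive cells free of CD45 and TER119 were sorted from digested livers, and amplified RNA was sequenced in 1 library per mouse. The labels give no age, sex or batch for these mice, and they carry a cell line tag and a culture protocol although the cells were sorted from tissue.

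Hepcidin, the product of *Hamp*, is a peptide hormone of hepatocytes. It binds ferroportin, the iron exporter encoded by *Slc40a1*, and leads to its degradation, so that less iron leaves gut cells and macrophages. Transcription of *Hamp* is driven by BMP ligands through a receptor complex that signals through SMAD1, SMAD5 and SMAD8 together with SMAD4, and by interleukin 6 through STAT3. HFE, hemojuvelin (*Hfe2*) and transferrin receptor 2 (*Tfr2*) sit at the cell surface upstream of this signal. Inside cells, iron regulatory proteins bind short stem-loops in the mRNAs of ferritin, ferroportin and transferrin receptor 1 and set their translation or stability to the iron supply.

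The bases upstream of the *Hamp* start are shown first because the elements through which BMP and STAT signals are known to act lie there. In the RefSeq promoter of *Hamp*, the 6 bases GGCGCC, the core of the BMP-responsive element, began 109 bases upstream of the start, and the 9 bases TTCTTGGAA, a STAT-type site, began 97 bases upstream. *Hamp2* is the mouse paralogue of *Hamp* on the same chromosome, and its promoter differed from the core in 1 base, G4A counted from the 5′ end of the 6 bases, while the STAT-type site was intact. The 2 promoters of 300 bases were identical in 279 of 306 aligned columns, which is 91.2%. Below, the 250 bases upstream of each start are given 5′ to 3′ on the minus strand of GRCm38.p6, at chr7:30944030-30944279 for *Hamp* and chr7:30924182-30924431 for *Hamp2*, with complete matches to either element in capitals.
Hamp: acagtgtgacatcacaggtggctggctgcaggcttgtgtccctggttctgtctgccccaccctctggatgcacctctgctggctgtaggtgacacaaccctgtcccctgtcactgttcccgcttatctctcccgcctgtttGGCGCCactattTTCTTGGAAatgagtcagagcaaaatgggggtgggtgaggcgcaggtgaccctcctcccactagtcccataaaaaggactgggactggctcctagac
Hamp2: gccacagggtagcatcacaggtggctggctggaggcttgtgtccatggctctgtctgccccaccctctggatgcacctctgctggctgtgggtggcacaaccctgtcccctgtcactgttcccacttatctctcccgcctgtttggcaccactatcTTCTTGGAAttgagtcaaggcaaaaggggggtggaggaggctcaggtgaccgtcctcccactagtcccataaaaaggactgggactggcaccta

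Over all 32851 RefSeq promoters of this length, GGCGCC stood in 11.9% and TTCTTGGAA in 0.4%, searched on both strands, and the motifs do not overlap each other. Of the 10 iron genes, 7 had a promoter in the table, with 11 promoters in all. GGCGCC was found for *Hamp* and for 1 of the promoters of *Tfrc*, and TTCTTGGAA for *Hamp* and *Hamp2*. The transcript of *Hamp* was 92.6%, 89% and 76.9% identical to the 3 annotated transcripts of *Hamp2*, over 421, 438 and 441 aligned columns, but 0 of the 311 stretches of 100 bases in the *Hamp* transcripts occurred in any other gene, so that reads of this length could be assigned to *Hamp*.

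A stem-loop of the iron-responsive type was looked for in GENCODE M21 transcripts as C, 5 bases, the loop CAGTGN with a last base other than G, and 5 bases that pair with the first 5. It was present in 272 of 21922 coding genes (1.24%), and in 4 of the 10 iron genes. These sequences are shown because iron regulatory proteins are known to bind such stem-loops, although the pattern is strict and a gene without a match, such as *Slc11a2*, may still carry an element of this type. The 3 genes below carried 1 match in the 5′ UTR each, at chr19:9982733-9982759 on the plus strand for *Fth1*, chr7:45459780-45459806 on the minus strand for *Ftl1* and chr1:45925466-45925492 on the minus strand for *Slc40a1* (GRCm38). The loop is in capitals.
Fth1: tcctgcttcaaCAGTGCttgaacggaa
Ftl1: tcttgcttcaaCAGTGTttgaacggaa
Slc40a1: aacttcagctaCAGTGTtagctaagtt

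*Tfrc* carried 4 matches in its 3′ UTR on the plus strand, at chr16:32631220-32631246, chr16:32631599-32631625, chr16:32631664-32631690 and chr16:32631711-32631737. They are listed in that order.
Tfrc site 1: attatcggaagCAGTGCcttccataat
Tfrc site 2: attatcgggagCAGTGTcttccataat
Tfrc site 3: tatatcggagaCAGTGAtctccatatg
Tfrc site 4: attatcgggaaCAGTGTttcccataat

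Between 16249719 and 21277339 reads fell on genes in the *Ctl* mice and between 16734672 and 19710560 in the *Smad4del* mice. *Smad4* itself stood at 3389 ± 347 normalized counts in *Ctl* and 877 ± 144 in *Smad4del* mice (SD, n = 5 each), a log2 fold change of -1.96 (SE 0.123, limma adjusted p = 1.088e-05), and the cohorts did not overlap. Over all 14870 genes tested, limma called 362 higher and 697 lower in *Smad4del* mice at an adjusted p of 0.05, with a median log2 fold change of -0.005. The sorted cells carried cholangiocyte markers in every mouse, with *Spp1* and *Cdh1* the most abundant of 12. The 12 markers summed to between 373300 and 544800 normalized counts in *Ctl* mice and between 538800 and 668900 in *Smad4del* mice. *Spp1* weighs most in this sum, at means of 359900 and 457100. The mean log2 level of the 12 markers differed by 0.003 (exact two-sided permutation p = 0.992), with 1 called higher and 1 lower by limma. Markers of other liver cells were present as well. The 14 hepatocyte markers, led by *Gc* and *Alb*, summed to 73080 to 102400 in *Ctl* and 79030 to 118000 in *Smad4del* mice, with 0 of 14 called by limma or edgeR, 2 by DESeq2 and 6 at an unadjusted limma p under 0.05, and a median log2 fold change of 0.67. The 14 macrophage markers, led by *Lyz2* and *C1qb*, summed to 12460 to 271800 and 3128 to 79080, with 0 of 14 called by limma, edgeR or DESeq2, 14 at an unadjusted limma p under 0.05 and a median of -2.51. The 14 endothelial markers summed to 22640 to 67940 and 7375 to 16300, with 13 of 14 called lower. Of the stellate cell and fibroblast markers 2 of 10 were called lower by limma, with 1 called by edgeR and 4 by DESeq2. At an unadjusted limma p under 0.05 there were 6, with a median log2 fold change of -0.88 and 0 of 10 above 0. Their mean log2 level differed by -1.17 (exact two-sided permutation p = 0.00794). Of the erythroid markers 0 of 5 tested were called by limma, edgeR or DESeq2, and of the lymphocyte and neutrophil markers 0 of 5 tested. None of these had an unadjusted limma p under 0.05. In every mouse 3 erythroid markers, *Slc4a1* and *Epb42* among them, were at 0. In such bulk samples, fewer cells of a type and less RNA of a gene per cell cannot be told apart.

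*Hamp* was almost lost from *Smad4del* cells. It lies at chr7:30942368-30944032 on the minus strand (GRCm38). In the *Ctl* mice A5215, A5219, A5221, A5626 and A5628 it stood at 482, 312.6, 168.4, 424.8 and 200.9 normalized counts, and in the *Smad4del* mice A5216, A5217, A5218, A5447 and A5624 at 4.147, 0, 3.043, 2.763 and 5.22. Every *Ctl* mouse lay far above every *Smad4del* mouse. The cohort means were 318 ± 136 and 3.03 ± 1.96 (SD, n = 5 each), so that 0.955% of the *Ctl* mean was left. In reads, 1617 in *Ctl* stood against 15 in *Smad4del* mice, a ratio of read rates of 105 (95% exact interval 63.6 to 188, which covers counting error only). The value of 0 in A5217 allows up to 2.995 normalized counts, the level of 3 reads.

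The log2 fold change of *Hamp* was -6.42 (SE 0.533, 95% interval -7.58 to -5.25, limma adjusted p = 0.0001109), and an exact two-sided permutation test gave p = 0.00794, the smallest that 5 mice against 5 allow. It was the lowest log2 fold change among the 14870 genes, ahead of *Cd163*, and ranked 7 by p. With DESeq2 and edgeR on the reads of 9 mice, *Hamp* ranked 28 and 25 from the lowest. Within the mice numbered A52 (3 against 3) its difference was -6.75 and within those numbered A54 or A56 (2 against 2) -5.92 on the log2 scale, without overlap in either. When each mouse was left out in turn the change ran from -6.63 to -5.97, with adjusted p of 5.376e-05 to 0.00101. The call was lost only when the endothelial marker level, which was lower in every *Smad4del* mouse, entered the fit as a covariate (-5.09, limma adjusted p = 0.507), where 0 of 14870 genes passed and 739 had an unadjusted p under 0.05.

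Hepatocytes are the main source of hepcidin, and 11 of their 14 markers had a log2 fold change above 0. The mean log2 level of the markers, which weighs them alike, differed by 0.48 (exact two-sided permutation p = 0.103). In their sum *Gc* weighs most, with means of 49300 in *Ctl* and 41700 in *Smad4del* mice and a log2 fold change of -0.22. Within each mouse, the log2 ratio of *Hamp* to the summed hepatocyte markers was -8.22 ± 0.689 in *Ctl* and -14.8 ± 1.21 in *Smad4del* mice (SD, n = 5 each). The difference was -6.55 (exact two-sided permutation p = 0.00794, adjusted p = 0.0278 over 7 ratios of these genes), and no *Smad4del* mouse reached the *Ctl* range of -8.91 to -7.24. Without A5216, A5217, A5218, A5447 or A5624 the differences were -6.79 to -6.03 with an adjusted p of 0.0556 each, the cohorts still not overlapping. The difference of medians was -6.01 (adjusted p = 0.167). When a *Ctl* mouse was left out instead, the adjusted p was 0.0185 to 0.0278. The few ways to divide so few mice limit all these values, and for medians many divisions tie. Each adjusted p also depends on the other ratios it was adjusted with. The adjusted p-values do not reflect an overlap of the cohorts. With the hepatocyte marker level as a covariate in the fit over all genes, the log2 fold change of *Hamp* was -6.20 (limma adjusted p = 0.00222).

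**Figure D1:**
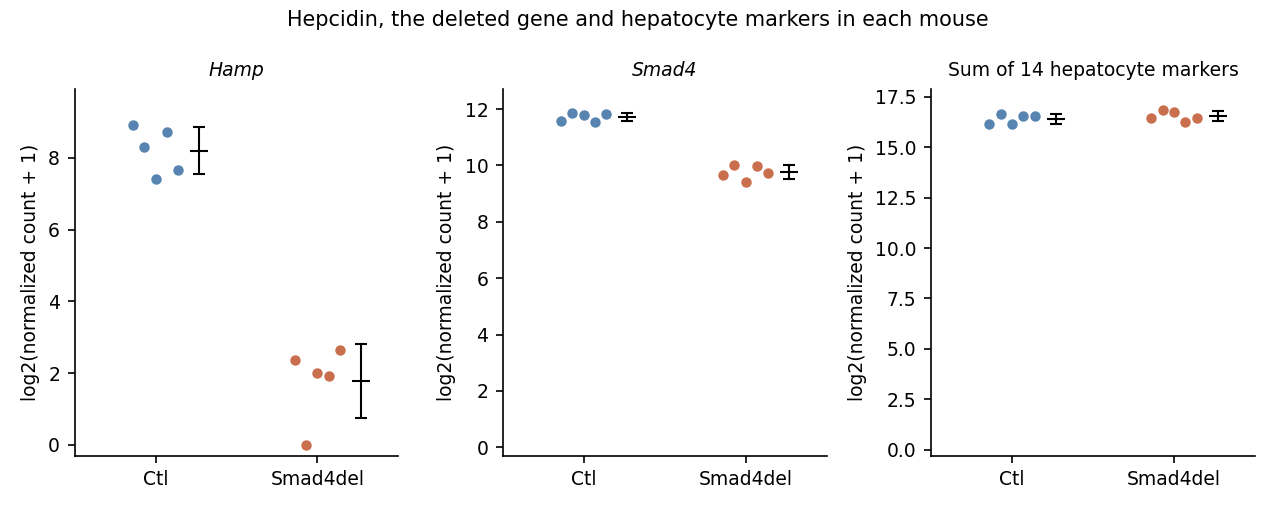
Levels of *Hamp*, *Smad4* and the sum of 14 hepatocyte markers as log2(normalized count + 1) on the vertical axis, with 1 point per mouse and the cohort mean ± SD as a bar to its right (n = 5 *Ctl*, 5 *Smad4del*). *Hamp* and *Smad4* were lower in all 5 *Smad4del* mice than in any *Ctl* mouse, while the hepatocyte sums of 73080 to 102400 and 79030 to 118000 overlapped. *Gc* weighs most in these sums.

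*Hamp2*, at chr7:30922372-30924681 on the minus strand, was nearly undetected. It had 7 reads (6.477 normalized counts) in *Ctl* mouse A5221 and 0 in each of the other 9 mice. At this depth a 0 allows 2.55 to 3.33 normalized counts per mouse, so no difference between cohorts was detectable for *Hamp2*, and it was not tested.

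The genes that resembled *Hamp* most in their pattern over the 10 mice, among 12541 with a mean of at least 50, were *Steap4* (Pearson r = 0.982 of log2 levels), *Msrb3* (r = 0.969) and *Id3* (r = 0.967). After the cohort means were taken out, the coefficients were 0.677, 0.548 and 0.529, so much of the likeness was the shared difference between cohorts. *Steap4*, a metalloreductase that reduces iron and copper, stood at 2737 ± 186 in *Ctl* and 1084 ± 169 in *Smad4del* mice.

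Among the surface proteins upstream of hepcidin, *Hfe* fell, while *Hfe2* and *Tfr2* did not pass the test. HFE is an MHC class I-like protein that binds transferrin receptor 1, and its loss causes hemochromatosis. *Hfe* (chr13:23702034-23710854, minus strand) stood at 2353, 818.7, 816.1, 1257 and 687.2 normalized counts in *Ctl* mice A5215, A5219, A5221, A5626 and A5628, and at 597.2, 444.2, 576.1, 410.8 and 416.5 in *Smad4del* mice A5216, A5217, A5218, A5447 and A5624. The *Ctl* values spread widely, with A5215 highest, but all lay above the *Smad4del* values. The log2 fold change was -1.14 (SE 0.291, limma adjusted p = 0.0385; exact two-sided permutation p = 0.00794). The call was not firm. It was lost without A5221, A5626, A5217, A5218, A5447 or A5624 (limma adjusted p of 0.0556 to 0.0905), with edgeR on the reads of 9 mice (adjusted p = 0.0952) and with the macrophage marker level as a covariate (log2 fold change -0.54), but kept with DESeq2 (adjusted p = 0.00404).

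*Hamp* and *Hfe* were thus the 2 of 9 tested genes called lower, where 4.69% of all genes tested were called lower, and 0 of 9 were called higher, where 2.43% of all genes were (7.12% in either direction). The same 2 genes were lower with no overlap between cohorts, as 4.59% of all tested genes were, and none was higher with no overlap, against 3.5% (8.09% in either direction). The median log2 fold change of the 9 genes was -0.58, against -0.005 over all genes tested.

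*Hfe2* encodes hemojuvelin, the BMP co-receptor of hepatocytes and muscle, and lies at chr3:96525172-96529210 on the plus strand. Its normalized counts were 66.38, 24.63, 0, 65.21 and 15.54 in the *Ctl* mice in the order above, and 153.4, 142.8, 62.88, 24.87 and 143 in the *Smad4del* mice. Of the *Smad4del* mice 3 lay above all *Ctl* mice, while A5218 and A5447 fell within their range. The log2 fold change of 2.29 (SE 1.04, 95% interval 0.03 to 4.55) had a limma adjusted p of 0.177, and the exact two-sided permutation test gave p = 0.0873. Over the 10 mice, *Hfe2* followed the mean log2 level of the 14 hepatocyte markers (Pearson r = 0.803, permutation p = 0.0054, adjusted p = 0.0245; Spearman rho = 0.721, adjusted p = 0.104). Without A5217 and A5221, the mice farthest from the median marker level, r was 0.678. With the hepatocyte level as a covariate, the log2 fold change of *Hfe2* was 0.71 (limma adjusted p = 0.721). It was 1.25 without A5221, the mouse at 0, and 1.49 with edgeR and 1.48 with DESeq2 on 9 mice, against 3.41 with the macrophage and 3.90 with the endothelial level as a covariate, and it passed the test in none of the alternatives.

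*Tfr2* encodes a receptor that senses iron-loaded transferrin in hepatocytes (chr5:137569840-137587481, plus strand). It stood at 259, 63.7, 62.92, 94.93 and 167.6 normalized counts in *Ctl* and at 50.8, 103.8, 106.5, 57.11 and 16.7 in *Smad4del* mice, in the same order of mice. The cohorts overlapped, with a log2 fold change of -0.97 (SE 0.543, limma adjusted p = 0.267). Relative to the summed hepatocyte markers of each mouse, the difference was -1.11 (exact two-sided permutation p = 0.119, adjusted p = 0.167). The genes closest to *Tfr2* in pattern were *Tmem206* (r = 0.886), *Cacna1a* (r = 0.876) and *2210013O21Rik* (r = 0.87), and the coefficients stayed at 0.848, 0.834 and 0.845 with cohort means removed.

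**Figure D2:**
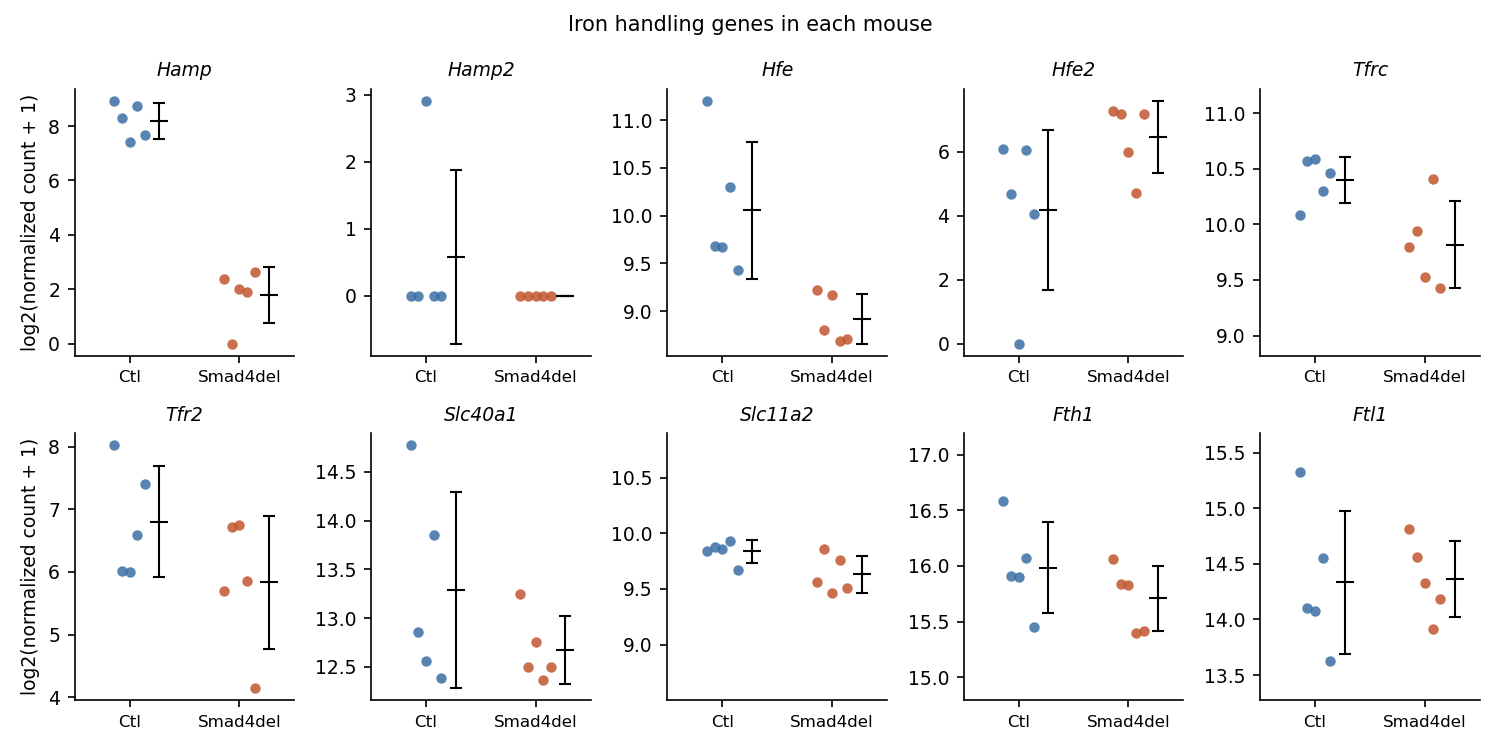
Each of the 10 iron genes as log2(normalized count + 1) on its own vertical axis, with 1 point per mouse and the cohort mean ± SD beside the points (n = 5 *Ctl*, 5 *Smad4del*). The cohorts were separate for *Hamp* and *Hfe* and overlapped for the other 8 genes, and *Ctl* mouse A5215, the leftmost point, was the highest of its cohort for *Hamp*, *Hfe*, *Hfe2*, *Tfr2*, *Slc40a1*, *Fth1* and *Ftl1*.

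Of the iron importers, *Tfrc* was lower on average without passing the test. It encodes transferrin receptor 1, which takes up transferrin-bound iron, and lies at chr16:32608920-32632794 on the plus strand. It stood at 1086, 1520, 1536, 1256 and 1405 normalized counts in the *Ctl* mice and at 890.5, 981.3, 734.3, 1354 and 685.8 in the *Smad4del* mice. In 4 of 5 *Smad4del* mice the value lay below every *Ctl* mouse, and A5447 lay among the *Ctl* mice. The log2 fold change was -0.58 (SE 0.176, 95% interval -0.97 to -0.20, limma adjusted p = 0.0651), with an exact two-sided permutation p of 0.0238. It passed without A5447 (-0.73, limma adjusted p = 0.0154) and with array weights. Nearest to it in pattern were *Vcpip1* (r = 0.941), *Gnb1* (r = 0.934) and *Ier5l* (r = 0.928).

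*Slc11a2* encodes DMT1, the transporter of ferrous iron across the apical and endosomal membranes (chr15:100387898-100425072, minus strand). Normalized counts ran from 812.6 to 978.1 in *Ctl* mice and from 706.9 to 925.4 in *Smad4del* mice, with means of 916 ± 61.9 and 797 ± 95.1 (SD, n = 5 each). Its log2 fold change of -0.21 (SE 0.104, 95% interval -0.43 to 0.02) had a limma adjusted p of 0.221.

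*Slc40a1*, at chr1:45908068-45926523 on the minus strand, encodes ferroportin, the only known exporter of iron from cells and abundant in macrophages that recycle red cells. It stood at 28000, 7427, 6044, 14740 and 5358 normalized counts in the *Ctl* mice A5215, A5219, A5221, A5626 and A5628 and at 9703, 5796, 6927, 5264 and 5762 in the *Smad4del* mice A5216, A5217, A5218, A5447 and A5624. The high *Ctl* mean of 12310 came from A5215 and A5626, and the other 3 *Ctl* mice lay within the *Smad4del* range. The log2 fold change was -0.61 (SE 0.395, 95% interval -1.48 to 0.25, limma adjusted p = 0.334). The genes most like it over the mice were *Abhd12* (r = 0.983), *Tmem86a* (r = 0.982) and *Itgb5* (r = 0.981), unchanged within 0.01 when cohort means were removed.

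Ferritin stores iron in a shell of heavy and light chains, encoded by *Fth1* (chr19:9980598-9985098, plus strand) and *Ftl1* (chr7:45457944-45459884, minus strand). *Fth1* lay between 44720 and 98440 normalized counts in *Ctl* mice and between 43230 and 68620 in *Smad4del* mice, with a log2 fold change of -0.27 (SE 0.198, 95% interval -0.71 to 0.16, limma adjusted p = 0.391). *Ftl1* ranged from 12630 to 41030 and from 15460 to 28820, with a log2 fold change of 0.03 (SE 0.275, 95% interval -0.57 to 0.63, limma adjusted p = 0.963). Neither ferritin gene passed the test. The value of *Ftl1* is uncertain, since 44.7% of the stretches of 100 bases in its transcripts occur in 6 other genes, several of them ferritin pseudogenes, and the sign of its difference turned when any of A5219, A5221, A5628, A5216 or A5217 was left out. The ratio of light to heavy chain within a mouse does not depend on scaling between mice. Its log2 value was -1.65 ± 0.252 in *Ctl* and -1.35 ± 0.131 in *Smad4del* mice (SD, n = 5 each), a difference of 0.30 with an exact two-sided permutation p of 0.0397 and an adjusted p of 0.0926. Without A5215 the difference was 0.40 (adjusted p = 0.0185). The ratios of *Tfrc* to *Slc40a1* and of *Tfrc* to *Fth1*, which set import against export and storage, differed by 0.03 and -0.31 (exact two-sided permutation p = 0.944 and 0.397).

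**Figure D3:**
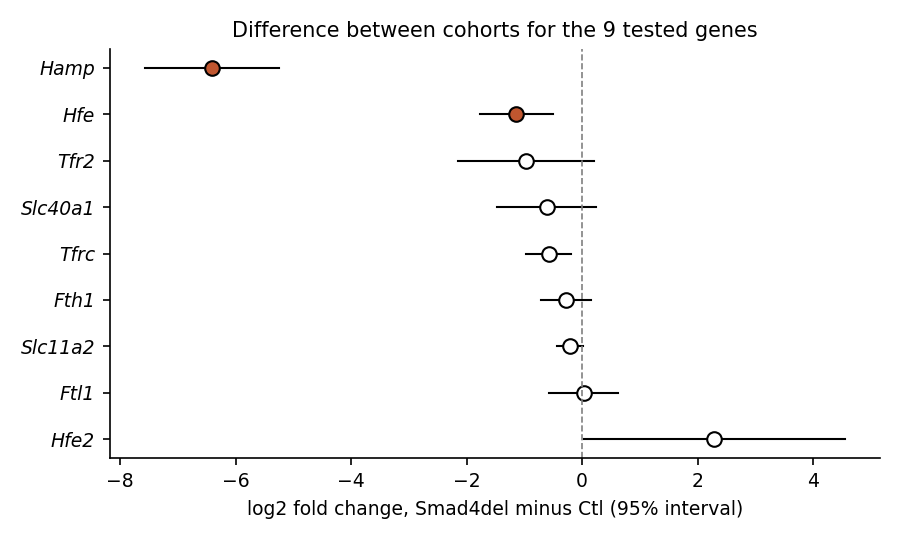
Log2 fold change of *Smad4del* against *Ctl* mice on the horizontal axis for the 9 tested iron genes, with 95% intervals from limma as lines (n = 5 per cohort) and filled points for an adjusted p under 0.05. *Hamp* (-6.42) and *Hfe* (-1.14) are filled and lie left of 0, and the intervals of *Tfr2*, *Slc40a1*, *Fth1*, *Slc11a2* and *Ftl1* cross 0.

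Macrophage markers moved with the ferritin heavy chain, ferroportin and *Hfe* from mouse to mouse. Relations of the 9 tested genes to the mean log2 level of macrophage and of hepatocyte markers, 18 in all, were computed over the 10 mice after the values had been seen, with two-sided permutation tests of 100000 resamples. *Fth1* followed the macrophage level most closely (Pearson r = 0.942, p = 1e-05, the smallest the resamples can give, adjusted p = 0.00018; Spearman rho = 0.976, adjusted p = 0.00072). For *Slc40a1*, r was 0.855 (permutation adjusted p = 0.0009) and rho 0.952 (adjusted p = 0.00117), and for *Hfe*, r was 0.885 (adjusted p = 0.00132) and rho 0.855 (adjusted p = 0.0167). Without A5215 and A5447, the mice farthest from the median macrophage level, r was 0.904, 0.805 and 0.814 for *Fth1*, *Slc40a1* and *Hfe*. Within the 6 mice numbered A52 it was 0.917, 0.887 and 0.907, and with cohort means removed 0.96, 0.834 and 0.825, while the 4 other mice were too few for a value. Relations to the endothelial or the stellate cell and fibroblast markers were not computed. A5215 also had the highest sums of these markers (67940 and 47270). With the endothelial level as a covariate, the log2 fold changes of *Fth1*, *Slc40a1* and *Hfe* were -0.007, 0.714 and -0.269. Whether the relations are particular to macrophage markers was not tested.

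*Hamp* gave r = 0.64 with the macrophage level (permutation adjusted p = 0.155) and r = -0.563 with the hepatocyte level (adjusted p = 0.227), and *Tfrc* gave r = 0.221 with the macrophage level (adjusted p = 0.686). *Ftl1* gave r = 0.705 with the macrophage level (adjusted p = 0.0761), and 0.908 once cohort means were removed. With the macrophage level as a covariate, the log2 fold changes of *Slc40a1* and *Fth1* turned to 0.23 and 0.19, that of *Ftl1* became 0.66 (limma adjusted p = 0.0448), and *Hamp* stayed at -6.07 (adjusted p = 0.00112). Per mouse, the log2 ratio of *Slc40a1* to the summed macrophage markers was -2.65 ± 0.82 in *Ctl* and -1.02 ± 1.47 in *Smad4del* mice (SD, n = 5 each), a difference of 1.63 with an exact two-sided permutation p of 0.103.

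**Figure D4:**
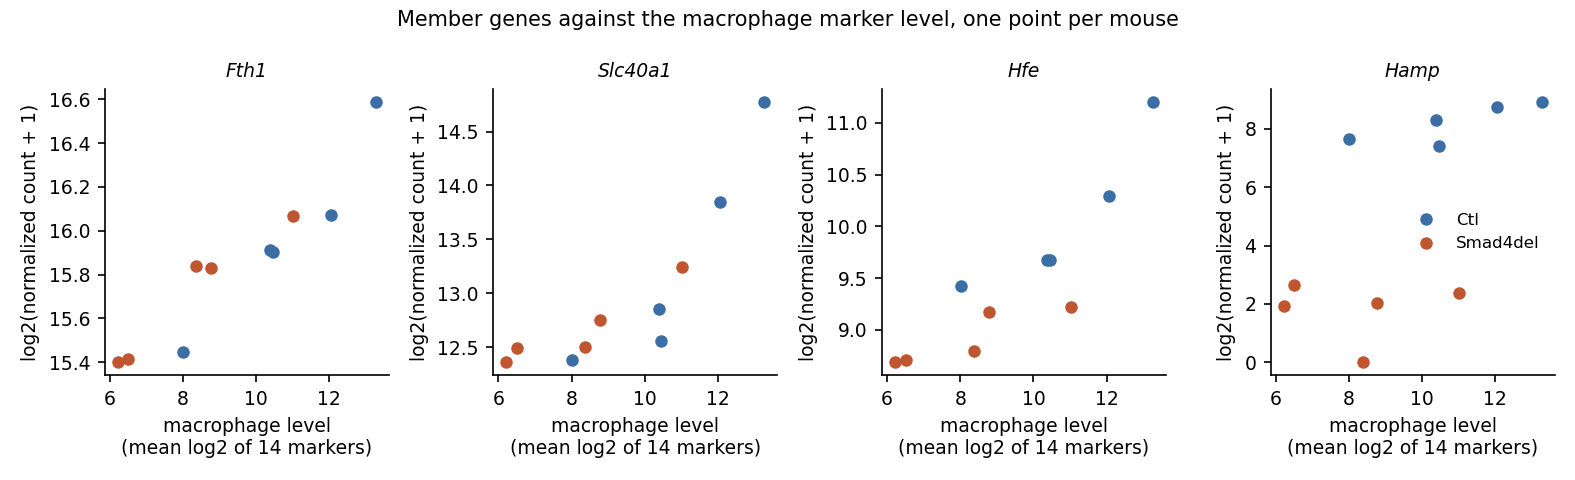
Log2(normalized count + 1) of *Fth1*, *Slc40a1*, *Hfe* and *Hamp* on the vertical axes against the mean log2 level of 14 macrophage markers on the horizontal axes, with 1 point per mouse (5 *Ctl*, 5 *Smad4del*). The points of *Fth1* rise along 1 line over both cohorts (r = 0.942), whereas *Hamp* forms a high *Ctl* and a low *Smad4del* band at overlapping macrophage levels.

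To compare the genes with each other, normalized counts were divided by the exon length in kb. This length covers the exons of all annotated transcripts of a gene. It was 3469 bases for *Fth1*, 1340 for *Ftl1*, 9000 for *Slc40a1* and 410 for *Hamp*. The order of genes depends on it, and the transcripts in use may be shorter. Before the division, *Fth1* lay above *Ftl1* in *Smad4del* mice as well, at means of 54490 and 21550. The level of *Ftl1* is also uncertain for the shared stretches given above. In *Ctl* mice the order of the mean levels per kb was *Fth1* (19310), *Ftl1* (16780), *Slc40a1* (1368), *Hamp* (775), *Hfe* (332), *Tfrc* (220), *Slc11a2* (144), *Tfr2* (29.9), *Hfe2* (16.9) and *Hamp2* (2.22). The ranges over mice did not overlap between *Ftl1* and *Slc40a1*, between *Tfrc* and *Slc11a2* or between *Slc11a2* and *Tfr2*, and the other neighbours overlapped, although *Slc40a1* lay above *Hamp*, and *Hamp* above *Hfe*, in all 5 mice. In *Smad4del* mice the order was *Ftl1* (16080), *Fth1* (15710), *Slc40a1* (743), *Tfrc* (150.2), *Hfe* (137), *Slc11a2* (125), *Hfe2* (52), *Tfr2* (15.4), *Hamp* (7.4) and *Hamp2* (0). Here the ranges were separate between *Fth1* and *Slc40a1*, between *Slc40a1* and *Tfrc* and between *Slc11a2* and *Hfe2*. Hepcidin thus moved from the level per kb that ranked 1265 of 14532 tested genes with a length in *Ctl* mice to rank 13118 in *Smad4del* mice.

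The wider iron pathway was read from 4 lists of other genes. The list of hepcidin control also holds targets of BMP signals, such as *Id1*. Of its 22 tested genes, 10 were called lower, *Smad4* itself among them, and 0 higher, with a median log2 fold change of -0.52. Over all genes tested, 4.69% were called lower and 2.43% higher. The 4 with the smallest p were *Smad4*, *Id1*, *Atoh8* and *Smad6*. *Id1*, a standard target of BMP signals, fell from 1382 ± 262 to 262 ± 53.5 normalized counts (log2 fold change -2.40, SE 0.168, limma adjusted p = 2.369e-05). *Atoh8*, a transcription factor that BMP6 and iron induce in the liver, fell to 36.6 ± 15.9 normalized counts, against 252.0 ± 70.5 in *Ctl* mice (-2.81, SE 0.314, adjusted p = 0.000717), and *Smad6*, an inhibitory SMAD, from 724 ± 102 to 345 ± 28 (-1.06, SE 0.124, adjusted p = 0.000969). Each of these 3 kept its call without any 1 mouse. The other 6, named here after their values were seen, were the inhibitory *Smad7*, the receptors *Acvr1* and *Bmpr2*, the ligand *Bmp2*, and *Il6st* and *Stat3* of the interleukin 6 signal. *Smad7* and *Acvr1* kept their calls without any 1 mouse. *Il6st* did not pass without A5217 or A5218, nor *Bmp2* without A5626, A5217 or A5218. With edgeR on 9 mice neither passed (adjusted p = 0.0712 and 0.0695), and the count of 10 was 7.

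The ligand *Bmp6* and the protease *Tmprss6*, which cleaves hemojuvelin, were also looked up after the values were seen. They stood at 1321 ± 163 and 1145 ± 91.9 normalized counts in *Ctl* and at 1509 ± 183 and 1139 ± 169 in *Smad4del* mice (SD, n = 5 each), with log2 fold changes of 0.19 and -0.02, and neither passed the test. *Bmp2*, which liver endothelial cells are known to produce, fell from 2635 ± 1798 to 779 ± 182, and the endothelial markers fell in the same mice. The part of endothelial RNA in the values of *Bmp2* and of the other genes of this list was not tested by itself. With the endothelial level as a covariate 0 of the 22 genes of hepcidin control passed, and 0 of all 14870 genes tested did. That fit therefore cannot set the genes of hepcidin control apart from the rest. Without A5218 the count of 10 became 6, while the 697 lower calls over all genes became 339.

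Of 19 tested genes of iron uptake and the transferrin cycle, 5 were called lower and 0 higher, against 4.69% and 2.43% of all genes tested, with a median log2 fold change of -0.35. *Steap4* fell by 1.35 on the log2 scale (SE 0.114, limma adjusted p = 0.000119), without overlap between the cohorts and with its call kept without any 1 mouse. *Lrp1*, a receptor for heme bound to hemopexin, fell by 1.65 (SE 0.358, adjusted p = 0.0208), and *Cd163*, the macrophage receptor for hemoglobin bound to haptoglobin, fell by 6.34 (SE 1.43, adjusted p = 0.0239). *Cd163* is a macrophage gene, was listed at 0 in 4 of 5 *Smad4del* mice and reached 1984 normalized counts in A5215, the mouse with the highest macrophage markers. The metal importer *Slc39a8*, named after its value was seen, fell by 1.49 (adjusted p = 0.0499). The calls of *Lrp1*, *Cd163* and *Slc39a8* depended on single mice. *Lrp1* did not pass without A5217 (adjusted p = 0.0584). *Cd163* did not pass without A5215, A5221, A5626, A5217, A5218 or A5624 (adjusted p of 0.0501 to 0.066), nor with edgeR (adjusted p = 0.154) or DESeq2 (adjusted p = 0.152) on 9 mice. *Slc39a8* passed only without A5219 or A5447 among the fits that left out a mouse. The count of 5 became 3 without A5215, A5628, A5216 or A5624, 2 without A5221, A5626 or A5218, and 1 without A5217. Lower calls over all genes fell as well, from 697 to 383 without A5221, 457 without A5626, 339 without A5218 and 324 without A5217.

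Among 13 tested genes of iron storage, export and the iron regulatory proteins, 2 were called lower and 0 higher, against 4.69% and 2.43% of all genes tested, with a median log2 fold change of 0.002. *Heph*, the ferroxidase hephaestin that works beside ferroportin, fell from 517 ± 135 to 231 ± 46.3 normalized counts (log2 fold change -1.15, SE 0.204, limma adjusted p = 0.00806). *Epas1*, which encodes HIF2A, fell from 1421 ± 370 to 699 ± 139 (-1.0, SE 0.199, adjusted p = 0.0142). Both kept their calls without any 1 mouse, although the cohorts overlapped for *Epas1*. Neither was called with the hepatocyte level as a covariate, where 128 of all genes were called lower. With the endothelial level as a covariate neither was called, and 0 of all genes were. The genes of the iron regulatory proteins, *Aco1* and *Ireb2*, had log2 fold changes of 0.16 and -0.04, and neither passed the test.

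In the list of mitochondrial iron and iron-sulfur clusters, 4 of 31 tested genes were called higher and 0 lower, against 2.43% and 4.69% of all genes tested, with a median log2 fold change of 0.22. *Fdxr*, which passes electrons to ferredoxin, rose from 213 ± 36.4 to 359.6 ± 69.2 normalized counts (log2 fold change 0.75, SE 0.185, limma adjusted p = 0.033). *Iba57*, a late assembly factor, rose by 0.74 (adjusted p = 0.0343) and *Ciao1*, of the cytosolic assembly machinery, by 0.39 (adjusted p = 0.0424). The cohorts did not overlap for any of the 4, where 3.5% of all tested genes were higher with no overlap. As the 4 were taken by p in these same data, this adds little to their calls. None of the 4 passed with edgeR on 9 mice. The count became 0 without A5215, A5628, A5217 or A5218, 1 without A5221 or A5624, 2 without A5626 and 7 without A5447. Higher calls over all genes moved as well, from 362 to 199 without A5215, 250 without A5628, 99 without A5217, 131 without A5218 and 564 without A5447.

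**Figure D5:**
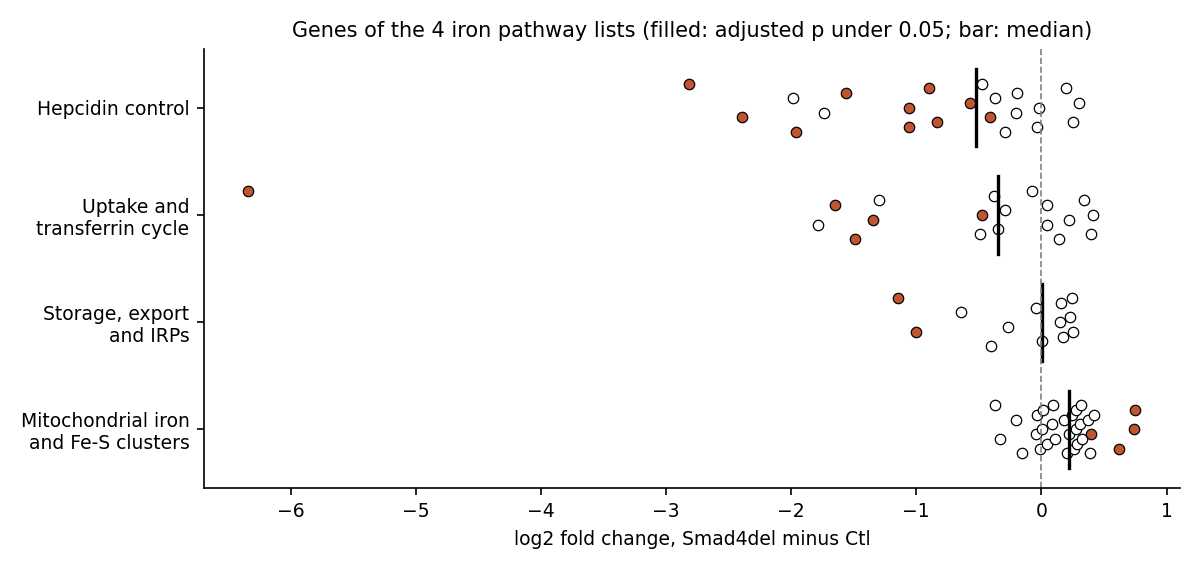
Log2 fold change of *Smad4del* against *Ctl* mice on the horizontal axis for every tested gene of the 4 iron pathway lists (n = 5 mice per cohort), with filled points for a limma adjusted p under 0.05 and a bar at each list's median. The 10 filled points of hepcidin control all lie left of 0, the 4 of mitochondrial iron and iron-sulfur clusters all lie right of it, and the medians are -0.52, -0.35, 0.002 and 0.22 from top to bottom.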

How the data were processed

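RNA was measured in sorted reactive cholangiocytes of 5 *Ctl* and 5 *Smad4del* mice, 1 library per mouse, and the labels' mouse numbers serve as names. The deposited values are a signal per gene, which the authors made by trimming single-end reads of 100 bases with Trimmomatic 0.36, aligning them with STAR to GRCm38.p5 (mm9 is also named in the processing notes), counting them with featureCounts per gene of GENCODE M12 and dividing the counts of each mouse by 1 DESeq2 1.14.1 size factor. The sources do not say whether the deposited set includes multi-mapping reads.

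Whole reads were recovered from the steps of the values (relative tolerance 1e-06). The value of 1 read in A5217 was too near 1 to tell recovered reads from rounded values, so DESeq2 1.42.0 and edgeR 4.0.16 ran on the other 9 mice, as alternatives. The main test was limma 3.58.1 (R 4.3.3) on log2 of the normalized count plus a pseudocount of 1, with the cohort as its term, a trended prior and Benjamini-Hochberg adjustment over 14870 genes with a mean of at least 10. Log2 fold changes are on that scale and understate changes of low genes. Ratios of genes within a mouse were compared by exact permutation tests. The tests were checked on simulated data. The labels do not say whether cells of a mouse were split, so p-values measure the spread between these libraries. The 10 genes, the lists and the tests were chosen with earlier results of these data known. The genes named are the 10, *Smad4*, up to 4 called genes per pathway list by p, the 2 most abundant markers of each cell type (not all described) and the 3 genes most like *Hamp*, *Tfr2*, *Tfrc* and *Slc40a1*, besides those said to be added later. Single genes that this rule takes but that are counted without a name are not reported here. Alternatives were other pseudocounts (0.5 and 10), filters, scalings, array weights, marker and mouse number covariates, and leaving out each mouse. Positions come from GENCODE M21 on GRCm38 and promoters from RefSeq on GRCm38.p6. *Flvcr1* and *Flvcr2* were not analysed here.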

Additional observations from a re-analysis of the deposited data

Results flagged for a closer look

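In groups of 5 mice, 4 of 34 sets of values had a highest mouse whose gap to the next exceeded Dixon's critical value of 0.71 as a share of the group's range, where chance alone marks about 1 in 20 sets. The normalized count of *Hamp2* was 6.477 in *Ctl* mouse A5221 and 0 in the other 4 *Ctl* mice. The log2 ratio of *Hamp2* to *Hamp* was -4.50 in the same *Ctl* mouse, against -8.92 to -7.66 in the others, which restates that value. Among *Smad4del* mice, the ratio of *Hamp2* to *Hamp* was 0 in A5217, where both genes were listed at 0, against -2.64 to -1.91. The log2 ratio of *Slc40a1* to the summed macrophage markers was -1.22 in *Ctl* mouse A5628, which had the lowest macrophage sum of its cohort, against -3.28 to -2.77 in the other 4.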

How the results depend on the processing

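Hepcidin kept its direction under all 23 alternatives and its call under 22. *Hfe* kept its direction under all 23 and its call under 12. The count of iron genes called lower (2) became 1 with no filter, with the hepatocyte or macrophage covariate and with edgeR, 0 with the endothelial covariate, where 2 of the 9 had an unadjusted p under 0.05, and 1 to 2 without single mice, and the count called higher (0, where 1 gene, *Hfe2*, had an unadjusted p under 0.05) became 1 with the macrophage covariate. Over all genes, the 362 higher calls became 209 with no filter, 626 with median scaling, 579 with quantile normalization, 39, 143 and 0 with the hepatocyte, macrophage and endothelial covariate, 89 with edgeR and 99 to 564 without single mice. The 697 lower calls became 128, 383 and 0 with those 3 covariates, 265 with edgeR and 324 to 841 without single mice, and stood at 639 with median scaling and 607 with quantile normalization. Median and quantile scaling thus raised the share of higher among all calls by more than 10 points, and the median log2 fold change over all genes was then 0.06 and 0.08. DESeq2 on 9 mice called 444 higher and 939 lower.

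Of the pathway lists, hepcidin control (10) gave 4 with the hepatocyte and 0 with the endothelial covariate and 6 to 11 without single mice. Iron uptake (5) gave 3 with no filter, 1, 3 and 0 with the hepatocyte, macrophage and endothelial covariate, 1 with edgeR and 1 to 5 without single mice. Storage and export (2) gave 0 with the hepatocyte and 0 with the endothelial covariate and 2 to 3 without single mice. Mitochondrial iron (4) gave 1 with no filter, 0, 2 and 0 with the 3 covariates, 0 with edgeR and 0 to 7 without single mice. The causes were not tested.

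Signs turned for *Fth1* with the macrophage covariate (0.19), for *Slc40a1* with the macrophage (0.23) and endothelial covariate (0.71), and for *Ftl1* with the hepatocyte covariate (-0.13), edgeR (-0.10), DESeq2 (-0.11) and without single mice (-0.15 to 0.28). The log2 ratio of *Tfrc* to *Slc40a1* was -0.78 as a difference of medians and -0.42 to 0.27 without single mice. The count of ratios past the threshold (2, of which *Hamp2* to *Hamp* only restates the loss of *Hamp*, as *Hamp2* was at 0 in 9 mice) became 0 with medians and 0 to 3 without single mice. Where the count became 0, the cohorts were still separate for *Hamp* to hepatocyte markers. The few mice limit how small p can be, and the adjusted p also depends on the other ratios. No paired analysis was possible because each mouse has its own number and none is shared between the cohorts. Depth limits *Hamp2* and the low end of *Hamp* in *Smad4del* mice, where 0 to 5 reads stood behind each value.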
